A study of Mus musculus with 14 samples.

Results

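The 10 potassium and cation channel genes described here, of 55487 genes counted, were Kcnn4, Kcna3, Kcnk6, Trpv2, Trpv4, Trpm2, Trpm4, Trpm7, Piezo1 and Grik2, found by their gene symbols. The set was chosen by the levels of Kcnn4 and Grik2 in these libraries, which had opposite patterns over the groups, so those 2 genes are given below as a description, with no test. The other 8 genes were tested. All 10 passed the filter on low counts.

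Mast cells were sorted from both ears of mice, and each library was made from a pool of at most 100 cells. Resident mast cells came from untreated mice (libraries 1 to 5) and from mice treated with MC903 (libraries 6 to 10). MC903 is calcipotriol, a vitamin D analogue that, put on mouse skin, gives a dermatitis resembling atopic dermatitis. The 4 remaining libraries (11, 13, 14 and 15) also came from MC903-treated mice and were labelled bone marrow mast cells; the protocol speaks of sorted integrin β7-positive mast cells from the ears, and this group was taken to be those cells. Genotype, strain, sex, age, dose and treatment time were not given in the sources used here, nor was the number of animals behind each library, so p-values measure only the spread between these libraries. A library with the number 12 was not analysed here.

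Mast cells store histamine and proteases in granules and release them when calcium enters through store-operated channels, which the Orai and Stim proteins form and open. Potassium leaving the cell through calcium-activated and voltage-gated potassium channels keeps the membrane potential negative and so keeps the drive for calcium entry, whereas cation channels such as TRPM4 let sodium in, depolarise the membrane and limit that drive. TRP and Piezo channels pass cations in response to stimuli such as heat, osmotic and mechanical force, lipids or oxidative stress, and kainate receptors are cation channels opened by glutamate, best known from synapses.

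Total counts ranged from 17706764 to 27068993 in untreated resident, from 13068078 to 25287381 in MC903 resident and from 19978811 to 31781926 in bone marrow libraries. Levels are CPM, the count of a gene relative to the total of its library, scaled between libraries by the trimmed mean of M values (TMM). The summed level of 10 mast cell markers was between 85000 and 160000 CPM over all libraries. Library 15 stood apart among the bone marrow libraries: 8 macrophage and dendritic cell markers summed to 10200 CPM there, against 80.9 to 338 CPM in the other 3 and 54.4 to 174 CPM in the 10 resident libraries. The genes with at least 1 count were most numerous in libraries 8, 7 and 15 (35246, 34560 and 32814 genes) and fewest in libraries 13, 11 and 14 (16025, 16285 and 19817). Mitochondrial genes held 1.22% to 1.70% of counts in untreated resident, 2.39% to 3.96% in MC903 resident and 2.14% to 4.24% in bone marrow libraries, so both MC903 groups lay above the untreated one. The part of these differences in the channel genes' values was not tested. Because each library is a pool, fewer cells with a transcript and less of it per cell cannot be told apart.

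Kcnn4 encodes KCa3.1, the intermediate-conductance potassium channel that calcium opens through bound calmodulin, and Grik2 encodes the kainate receptor subunit GluK2. Kcnn4 (ENSMUSG00000054342.8) lies on the plus strand of chromosome 7 at 24370263 to 24386690 of GRCm38, and Grik2 (ENSMUSG00000056073.16) on the minus strand of chromosome 10 at 49094833 to 49788766. The 250 bases before each RefSeq start site (GRCm38.p6) are shown because these 2 genes had the opposite patterns. They are chr7:24370013-24370262 on the plus strand for Kcnn4 and chr10:49788755-49789004 on the minus strand for Grik2, written 5′ to 3′ along the gene, with CpG dinucleotides in capitals:
Kcnn4: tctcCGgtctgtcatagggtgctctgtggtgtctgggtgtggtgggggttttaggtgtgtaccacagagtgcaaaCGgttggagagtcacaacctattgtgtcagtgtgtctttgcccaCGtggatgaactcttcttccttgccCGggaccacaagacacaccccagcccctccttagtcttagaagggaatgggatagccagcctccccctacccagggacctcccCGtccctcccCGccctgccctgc
Grik2: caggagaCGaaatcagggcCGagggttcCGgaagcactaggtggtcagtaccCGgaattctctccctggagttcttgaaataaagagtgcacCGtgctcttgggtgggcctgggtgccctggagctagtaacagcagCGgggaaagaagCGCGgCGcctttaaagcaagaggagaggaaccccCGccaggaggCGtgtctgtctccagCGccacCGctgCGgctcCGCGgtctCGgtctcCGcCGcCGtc
The Kcnn4 window held 6 CpG dinucleotides, and 49.6% of 32851 RefSeq promoter windows of the same length held fewer. The Grik2 window held 20, and 82.1% of windows held fewer. The GC content was 58.8% and 62.8%. Of 8 motifs searched on both strands, the Kcnn4 window held the E-box CACGTG, present in 6.02% of all windows, and the GC box GGGCGG on the reverse strand, present in 32.7%. The Grik2 window held none of these letters and none of the other 6 motifs. Those were GATA sites (AGATAA, with AGATAG and TGATAA and also TGATAG, in 26.5% of windows), the E-box CATGTG (12.3%), the AP-1 site TGANTCA (6.75%), the TATA box TATAAA (12.4%), the CRE site TGACGTCA (1.55%) and the ETS site CCGGAAGT (2.88%). The 2 matches lay 133 and 14 bases before the start and did not overlap, and a match is a description of the letters only. Among the other members, 6 had a RefSeq window. Their CpG counts ranged from 2 in the Trpv2 window nearest the annotated gene start to 31 in that of Kcna3.

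**Figure D1:**
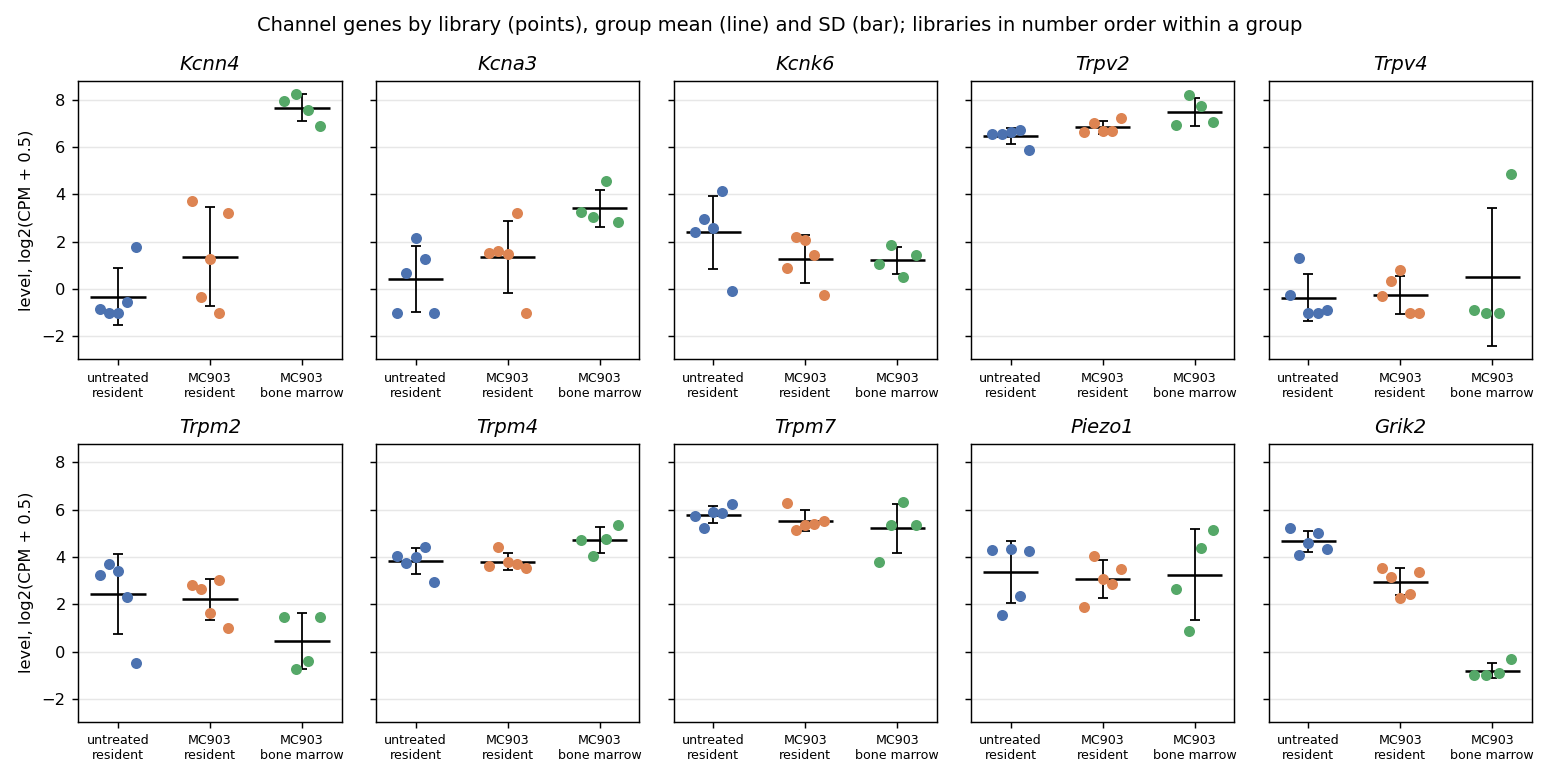
Level of each of the 10 channel genes by library, as log2(CPM + 0.5) on the vertical axis, with untreated resident, MC903 resident and bone marrow libraries side by side (n = 5, 5 and 4); points are libraries, the line is the group mean and the bar its SD. Kcnn4 is highest in the bone marrow libraries (119 to 304 CPM) and Grik2 in the untreated resident libraries (16.7 to 36.8 CPM).

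Kcnn4 was close to undetected in untreated resident mast cells and among the more abundant transcripts of the bone marrow group. In untreated resident libraries 1 to 5 it was at 0.0567, 0, 0, 0.19 and 2.95 CPM, which are 1, 0, 0, 4 and 66 counts. In MC903 resident libraries 6 to 10 it was at 12.6, 0.29, 1.94, 0 and 8.69 CPM (242, 5, 30, 0 and 206 counts). In bone marrow libraries 11, 13, 14 and 15 it was at 244, 304, 188 and 119 CPM (5823, 8742, 4408 and 2341 counts). The bone marrow libraries did not overlap with either resident group, and the lowest of them was 9.42 times the highest MC903 resident library and 40.3 times the highest untreated one. The 2 resident groups overlapped: MC903 libraries 6 and 10 were above every untreated library, and the other 3 MC903 libraries were within the untreated range.

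The group means were 0.639 ± 1.29 CPM (SD, n = 5) in untreated resident, 4.71 ± 5.65 CPM (SD, n = 5) in MC903 resident and 214 ± 79.1 CPM (SD, n = 4) in bone marrow cells. The bone marrow mean was 45.4 times the MC903 resident mean and 334 times the untreated mean. On the log2 scale the fitted differences were 2.87 ± 1.46 (SE) for MC903 resident over untreated resident, 5.50 ± 1.58 for bone marrow over MC903 resident and 8.37 ± 1.81 for bone marrow over untreated resident. Untreated library 5 set the size of both differences from the untreated group: without it the untreated mean was 0.0617 CPM and the fitted differences were 6.24 and 11.7. The order of the groups, with bone marrow far above both resident groups, did not depend on that library.

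Marker genes of other cells were read in the same libraries. The summed level of 7 T cell markers ranged from 0.0751 to 5.95 CPM in untreated resident, from 4.23 to 44.1 CPM in MC903 resident and from 4.11 to 84.1 CPM in bone marrow libraries. In MC903 resident libraries 6 to 10 the sum was 44.1, 4.23, 11.6, 6.47 and 33.6 CPM, highest in libraries 6 and 10, which also had the most Kcnn4. Nearly all of the sum in those 2 libraries was Cd4, at 39.3 and 29 CPM against 0.232, 0.452 and 1.85 CPM in libraries 7 to 9. Cd3d was also highest in these 2 libraries, at 0.521 and 2.24 CPM against 0 in libraries 7 to 9. The other genes of the list were not highest in both. Lck was at 0.104 and 0 CPM in libraries 6 and 10 and at 3.77, 3.55 and 2.04 CPM in libraries 7 to 9, and Cd3e was at 3.75 CPM in library 6 and at 0 in library 10. Cd3g was highest in library 9 (2.38 CPM) and Cd8a in library 8 (2.52 CPM), and Trac was at 0.26 and 1.86 CPM in libraries 6 and 10 and at 1.29 CPM in library 8.

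In bone marrow libraries 11, 13, 14 and 15, where Kcnn4 was at 244, 304, 188 and 119 CPM, the T cell sum was 4.11, 84.1, 29.4 and 39.7 CPM and Cd4 was at 2.18, 80.2, 0.769 and 31.6 CPM. Library 13 was highest in Kcnn4 and in Cd4, library 11 had the next highest Kcnn4 with the lowest T cell sum, and library 14 had the highest Cd3d (16.8 CPM) and Cd3g (7.69 CPM) of all 14 libraries. Mcpt8, a protease gene used as a basophil marker, was at 980, 206, 83.6 and 46.7 CPM in these libraries and at 3.16 to 57.3 CPM in the resident ones. Prss34, of the same list, was at 4.78, 15.9, 0.384 and 0 CPM in the bone marrow libraries and at 0 to 42.2 CPM in the resident ones. Cd200r3 (224 to 713 CPM) and Itga2b (279 to 893 CPM), the other genes of that list, were high in every library. The summed level of the 4 basophil markers overlapped between the groups, at 978 to 1140, 901 to 1560 and 667 to 1840 CPM. The part of T cells and basophils in the Kcnn4 values was not tested.

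Grik2 had the reverse order. In untreated resident libraries 1 to 5 it was at 36.8, 16.7, 23.9, 31.7 and 20 CPM. The levels in MC903 resident libraries 6 to 10 were 10.9, 8.46, 4.33, 4.91 and 9.96 CPM. In bone marrow libraries 11, 13, 14 and 15 it was at 0, 0, 0.0427 and 0.304 CPM, which are 0, 0, 1 and 6 counts. No 2 groups overlapped, and the lowest untreated library was 1.52 times the highest MC903 resident library.

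The Grik2 means were 25.8 ± 8.32 CPM (SD, n = 5), 7.72 ± 2.97 CPM (SD, n = 5) and 0.0868 ± 0.146 CPM (SD, n = 4), so the untreated mean was 3.34 times the MC903 resident mean. The fitted log2 differences were -1.74 ± 0.68 (SE) for MC903 resident against untreated resident, -6.49 ± 0.97 for bone marrow against MC903 resident and -8.23 ± 1.03 for bone marrow against untreated resident. Over the 4 bone marrow libraries there were 7 Grik2 counts in all (exact Poisson 95% interval 2.81 to 14.4 counts), or 0.0731 CPM (0.0294 to 0.151 CPM). Such intervals cover counting error only, because the reads were amplified and carry no molecular identifiers. Libraries 11, 13 and 14 each had 3 counts or fewer. A floor of 3 counts per library puts Grik2 in them at least 216-fold below the untreated resident mean and at least 64.6-fold below the MC903 resident mean. Of the 7 counts, 6 were in library 15. Without library 15 the fitted differences were -8.66 from MC903 resident and -10.4 from untreated resident cells.

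The genes whose log2 CPM followed Kcnn4 and Grik2 most closely were ranked by Pearson's r over the 14 libraries among 8718 genes that averaged 10 CPM or more in some group. The libraries of a group share its condition, so r mostly reflects differences between groups, and it is given as a description. For Kcnn4 the closest were Scin (r = 0.978), Rex1bd (0.921), Bax (0.914), Fdx1 (0.912) and Hs3st1 (0.911). Scin, which encodes the actin-severing protein scinderin, was at 10, 0.811, 2.84, 0.0973 and 26.1 CPM in libraries 6 to 10, also highest in libraries 6 and 10, and at 221 to 681 CPM in bone marrow libraries. For Grik2 the closest were Sgcd (0.986), Mrgprb1 (0.981), Mapk12 (0.979), Necab2 (0.975) and Bex4 (0.972). Mrgprb1, a receptor gene of the Mrgprb cluster whose members resemble one another in sequence, was at 1940 to 2940 CPM in untreated resident libraries and 277 to 525 CPM in bone marrow libraries. Sgcd, which encodes the membrane protein delta-sarcoglycan, was at 23.2 to 35.3 CPM in untreated resident and 0 to 0.609 CPM in bone marrow libraries.

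The comparison of MC903 resident with untreated resident cells asks what the treatment changed in resident mast cells. None of the 8 tested channel genes was called (adjusted p under 0.05 in edgeR's quasi-likelihood test), where 2.25% of the 21014 genes tested were called (0.571% higher and 1.68% lower, or 120 and 353 genes). With DESeq2 size factors in place of TMM these were 207 and 294 genes, and TMM computed on abundant genes gave 250 and 266. By DESeq2 and by limma the count was also 0, where these tools called 5.06% and 6.46% of all genes. At an unadjusted p under 0.05 in edgeR there were 0 of the 8 and 12.6% of all genes. Between these groups no tested member was free of overlap, against 5.33% of all genes. Their median log2 difference was -0.15, and that of all genes tested was 0.24.

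Bone marrow cells against MC903 resident cells compares mast cells of 2 kinds from treated mice. Again 0 of the 8 were called, where 2.27% of all genes were (1.32% higher and 0.952% lower, or 277 and 200 genes). This split turned with the scaling, to 167 higher and 242 lower with DESeq2 size factors and 178 and 254 with TMM computed on abundant genes. DESeq2 and limma also called 0 of the 8, beside 8.14% and 9.6% of all genes. At an unadjusted p under 0.05 in edgeR there were 2 of the 8, beside 17.7% of all genes. None of the 8 was free of overlap, against 8.29% of all genes, and their median log2 difference was 0.76 where that of all genes was -0.28. Bone marrow against untreated resident cells uses the same bone marrow libraries and the same untreated libraries as the comparisons above. These groups differ in cell kind and in MC903 treatment together, and the parts of each cannot be told apart in this comparison. Trpv2 alone was called among the 8, with 6.87% of all genes called (3.49% higher and 3.37% lower). At an unadjusted p under 0.05 in edgeR there were 4 of the 8, beside 21.3% of all genes. DESeq2 called 1 of the 8 and limma 2, beside 12.9% and 10.4% of all genes. The libraries of the groups did not overlap for Trpv2 and Kcna3, 2 of the 8, against 10.4% of all genes. The median was 0.60 for the 8 and -0.14 for all genes.

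**Figure D2:**
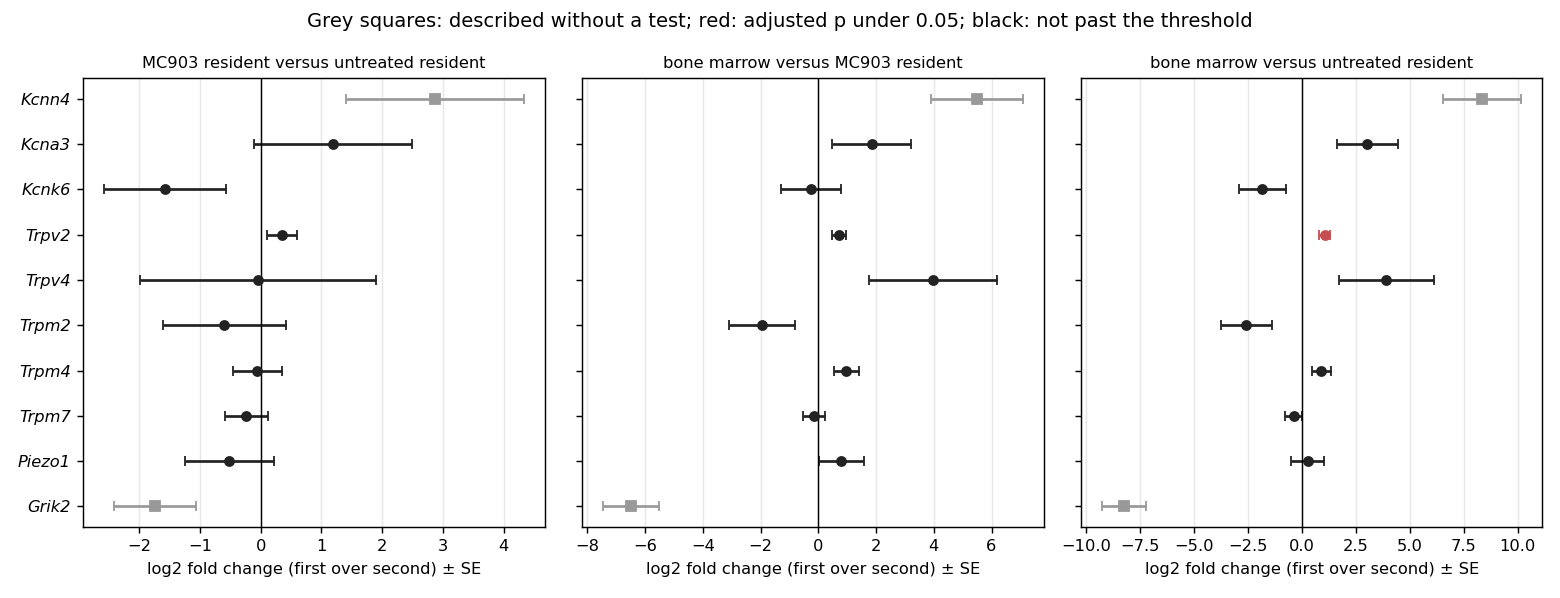
Fitted log2 fold changes with SE (horizontal axis, first group over second) of the 10 genes in the 3 comparisons; grey squares are the 2 genes described without a test, red is an adjusted p under 0.05 and black is not past that threshold. Trpv2 in bone marrow over untreated resident cells, 1.07 ± 0.26, is the only red point.

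Kcna3 encodes the voltage-gated potassium channel Kv1.3, well known from T lymphocytes. It was at 0, 1.11, 3.98, 1.9 and 0 CPM in untreated resident, 2.4, 2.55, 2.26, 8.81 and 0 CPM in MC903 resident and 9.09, 7.69, 22.9 and 6.54 CPM in bone marrow libraries. Every bone marrow library was above every untreated one, and MC903 library 9 lay among the bone marrow values. The log2 difference of bone marrow from untreated resident cells was 3.04 ± 1.42 (SE), with adjusted p = 0.218 in edgeR. In limma with quality weights it was 4.40 with adjusted p = 0.0399, so the call depended on the tool. Against MC903 resident cells it was 1.85 ± 1.37 (adjusted p = 0.509 in edgeR). Library 14, where Kcna3 was highest, also had the highest Cd3d and Cd3g of all 14 libraries, while library 13, with the most Cd4, had Kcna3 at 7.69 CPM. The part of T cells in the Kcna3 values was not tested.

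Kcnk6 encodes TWIK-2, a background (leak) potassium channel. Its levels were 4.76, 7.22, 5.56, 16.9 and 0.447 CPM in untreated resident, 1.35, 4.06, 3.74, 2.24 and 0.338 CPM in MC903 resident and 1.59, 3.13, 0.94 and 2.23 CPM in bone marrow libraries. Untreated library 5 was below all 4 bone marrow libraries and the other 4 untreated libraries were above them. The log2 differences from untreated resident cells were -1.57 ± 1 (adjusted p = 0.602) in MC903 resident and -1.82 ± 1.09 (adjusted p = 0.368) in bone marrow cells, neither past the threshold in edgeR.

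The potassium channel genes can be set against one another per kilobase of exon. Over 77 genes of pore-forming potassium channel subunits, the summed level was 50.8 ± 15.8 CPM per kilobase (SD, n = 5) in untreated resident, 51.6 ± 5.68 (SD, n = 5) in MC903 resident and 69.4 ± 9.83 (SD, n = 4) in bone marrow cells. Kcnq1, which encodes the voltage-gated channel KvLQT1, was the most abundant of them in each of the 10 resident libraries, and Kcnn4 in each of the 4 bone marrow libraries. Kcnn4 made up 0.48% ± 1.02, 1.84% ± 2.24 and 59.2% ± 16.4 of the sum in the 3 groups. Its share was 73.2%, 72.1%, 52.2% and 39.2% in bone marrow libraries 11, 13, 14 and 15, and at most 4.85% in any resident library. Kcnq1 made up 76.8% ± 3.69, 57.5% ± 11.7 and 18% ± 5.82. Kcna3 held a mean of 1.36%, 3.39% and 8.78%, and Kcnk6 3.1%, 1.06% and 0.683%.

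**Figure D3:**
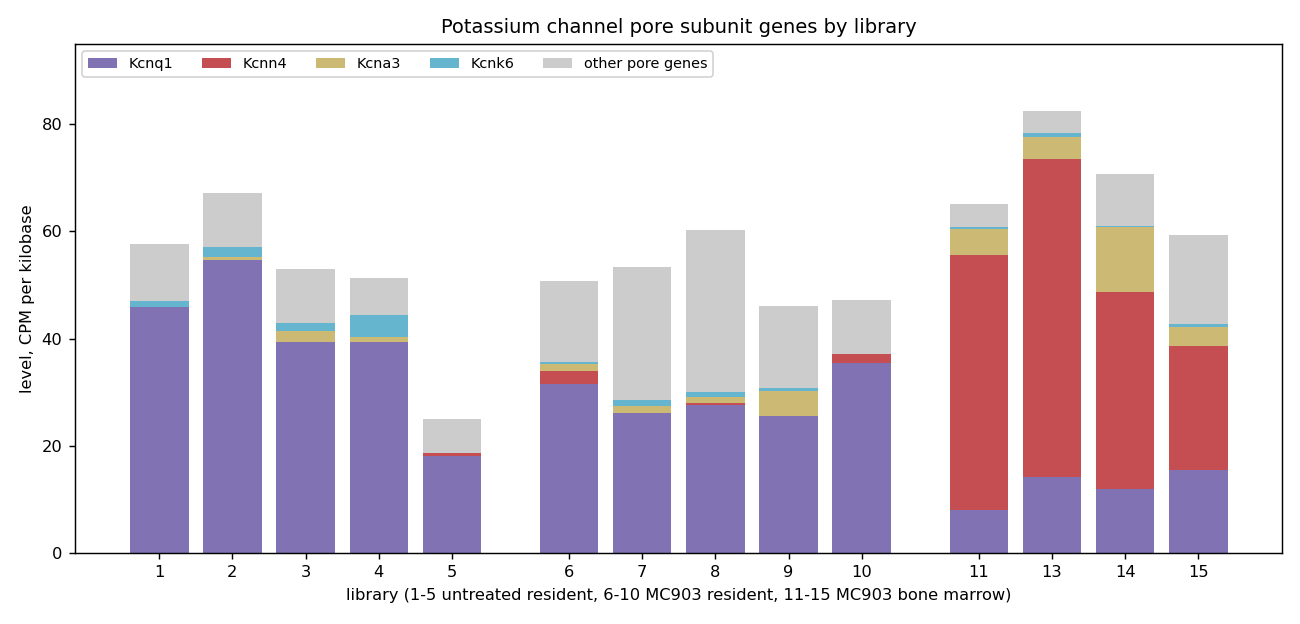
Stacked levels of potassium channel pore subunit genes in each library, in CPM per kilobase of exon (vertical axis), with Kcnq1, Kcnn4, Kcna3 and Kcnk6 in colour and the remaining pore genes in grey. Kcnq1 fills most of the bar in untreated libraries (72.3% to 81.4%), and Kcnn4 holds 39.2% to 73.2% in the bone marrow libraries.

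Kcnq1 itself fell in bone marrow cells. Its levels were 188, 224, 161, 161 and 73.8 CPM in untreated resident, 129, 107, 113, 105 and 145 CPM in MC903 resident and 32.4, 57.8, 48.5 and 63.4 CPM in bone marrow libraries. Every bone marrow library was below every resident library. The log2 difference was -1.24 ± 0.27 (SE) from MC903 resident cells (edgeR adjusted p = 0.0167) and -1.68 ± 0.28 from untreated resident cells (adjusted p = 0.00052). Between the resident groups it was -0.43 ± 0.25 (adjusted p = 0.542). The antisense transcript Kcnq1ot1 overlaps 121 exonic bases of Kcnq1, 2.96% of its exonic length, and the strand setting of the counting is not given in the sources used here. Kcnq1ot1 was at 46 to 81.3 CPM in untreated resident, 31.9 to 94.1 CPM in MC903 resident and 10.2, 13.1, 71.6 and 15.5 CPM in bone marrow libraries. It was below every resident library in bone marrow libraries 11, 13 and 15, as Kcnq1 was in all 4, and its part in the Kcnq1 counts was not tested.

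Of the other 76 pore genes beside Kcnn4, 50 passed the filter. None was called between the resident groups in edgeR (7 had an unadjusted p under 0.05, beside 12.6% of all genes, and DESeq2 called 1 and limma 4, beside 5.06% and 6.46%). In edgeR Kcnq1 was the only one called in either comparison with bone marrow cells, which is 2% of those tested beside 2.27% (against MC903 resident) and 6.87% (against untreated) of all genes. DESeq2 called 6 and 5 of the 50 in these comparisons, beside 8.14% and 12.9% of all genes, and limma 7 and 4, beside 9.6% and 10.4%. Their median log2 differences were 1.19, -1.86 and -0.90 in the order MC903 resident over untreated, bone marrow over MC903 resident and bone marrow over untreated. Of 17 auxiliary subunit genes, 12 were tested and edgeR called 2, both between bone marrow and untreated resident cells, or 16.7% of those tested beside 6.87% of all genes. Under each of the 7 other settings, DESeq2 and limma included, 2 were also called there. Under these settings 0 to 2 were called between resident groups and 0 to 1 between bone marrow and MC903 resident cells. Kcne3, whose product joins KCNQ1 and holds it open, fell by 1.01 ± 0.24 on the log2 scale (adjusted p = 0.0112). Its range was 281 to 659 CPM in untreated and 177 to 279 CPM in bone marrow libraries, with no overlap. MC903 resident libraries were at 188 to 365 CPM, and bone marrow against MC903 resident cells was -0.29 ± 0.24 (edgeR adjusted p = 0.556). Kcnab2, a beta subunit of Kv1 channels, rose by 1.72 ± 0.42 (adjusted p = 0.0126). Its range was 4.11 to 12.6 CPM in untreated and 18.9 to 46 CPM in bone marrow libraries, also with no overlap. MC903 resident libraries, at 14.8 to 30.5 CPM, were also all above the untreated ones. Bone marrow over MC903 resident cells was 0.62 ± 0.41 for Kcnab2 (edgeR adjusted p = 0.456). The Kcnab2 call was lost without library 13 (1.5, adjusted p = 0.0679).

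Trpv2 encodes a calcium-permeable TRP channel that heat and membrane stretch can open and that has been studied in mast cells. Its mean level per kilobase was the highest of the members in both resident groups and close to that of Kcnn4 in the bone marrow group: 20.2, 25.8 and 42.5 CPM per kilobase in untreated resident, MC903 resident and bone marrow cells, above 89.6%, 92.5% and 94.2% of the genes tested. Its levels were 94.1, 94.2, 99.5, 106 and 58.8 CPM in untreated resident, 98.3, 129, 100, 101 and 151 CPM in MC903 resident and 121, 294, 215 and 133 CPM in bone marrow libraries. All 4 bone marrow libraries were above all untreated ones, while MC903 libraries 7 and 10 lay within the bone marrow range.

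Trpv2 rose by 1.07 ± 0.26 (SE) on the log2 scale in bone marrow over untreated resident cells (edgeR adjusted p = 0.0116), with means of 90.5 ± 18.4 CPM (SD, n = 5) in untreated and 191 ± 80.5 CPM (SD, n = 4) in bone marrow cells, a ratio of 2.11. Library 13 carried the call: without it the difference was 0.78 and the adjusted p was 0.0838. Without each other untreated or bone marrow library in turn the call was kept. Against MC903 resident cells, at 116 ± 23.3 CPM, it was 0.72 ± 0.26 (adjusted p = 0.149), and MC903 resident over untreated resident cells was 0.36 ± 0.24 (adjusted p = 0.644). For bone marrow over untreated cells edgeR called only Trpv2 of 26 tested in a list of 28 TRP family genes. That is 3.85% beside 6.87% of all genes, and the list's median was -0.50. DESeq2 called 2 and limma 1, beside 12.9% and 10.4% of all genes. The main edgeR fit called none of the list between resident groups or against MC903 resident cells, beside 2.25% and 2.27% of all genes. The number called there was above 0 in 3 and 4 of the alternatives run. In library 15 Trpv2 was at 133 CPM, lower than in libraries 13 and 14.

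Trpm4 encodes the calcium-activated channel for monovalent cations. It was at 15.9, 12.8, 15.6, 20.7 and 7.11 CPM in untreated resident, 11.7, 20.8, 13.3, 12.4 and 11.1 CPM in MC903 resident and 25.6, 15.9, 26.6 and 40.5 CPM in bone marrow libraries. Bone marrow libraries 11, 14 and 15 were above every resident library and library 13 was not. The log2 difference was 0.92 ± 0.42 (SE) from untreated resident (edgeR adjusted p = 0.215) and 0.97 ± 0.42 from MC903 resident cells (adjusted p = 0.236). Without library 15 these were 0.66 and 0.72 (adjusted p = 0.366 and 0.304).

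Trpm7 encodes a channel fused to a protein kinase that passes magnesium, zinc and calcium. It was the TRPM member with the highest level per kilobase in each group, at 4.98, 4.23 and 3.84 CPM per kilobase. Its levels were 52, 37.2, 59.5, 57.6 and 75.3 CPM in untreated resident, 76.7, 35.2, 40.5, 41.1 and 45.6 CPM in MC903 resident and 13.4, 39.8, 79.4 and 40.9 CPM in bone marrow libraries. The groups overlapped throughout, and the adjusted p in edgeR was between 0.633 and 0.887 over the 3 comparisons.

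Trpm2 encodes a channel opened by ADP-ribose and by oxidative stress. It was at 9.01, 12.6, 10.1, 4.42 and 0.223 CPM in untreated resident, 6.46, 5.74, 2.65, 7.64 and 1.48 CPM in MC903 resident and 2.26, 0.104, 0.256 and 2.28 CPM in bone marrow libraries. Untreated library 5 was again low, within the bone marrow range. The log2 difference of bone marrow cells was -2.56 ± 1.17 (SE) from untreated resident (edgeR adjusted p = 0.206) and -1.96 ± 1.14 from MC903 resident cells (adjusted p = 0.382).

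Trpv4 encodes a TRP channel opened by osmotic swelling and warmth. It was at 0.34, 1.97, 0, 0 and 0.0447 CPM in untreated resident, 0.313, 0.754, 1.23, 0 and 0 CPM in MC903 resident and 0.0419, 0, 0 and 28.9 CPM in bone marrow libraries. Library 15 was 14.7 times the next highest of the 14 libraries. The fitted log2 difference of bone marrow from untreated resident cells was 3.92 ± 2.21 (SE, edgeR adjusted p = 0.33) with library 15 and -4.62 (adjusted p = 0.237) without it, and from MC903 resident cells it turned from 3.97 ± 2.22 (adjusted p = 0.362) to -4.56 (adjusted p = 0.229).

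Piezo1 encodes a channel opened by mechanical force. It was at 19.1, 2.46, 19.5, 4.65 and 18.5 CPM in untreated resident, 3.23, 16.2, 7.81, 6.86 and 10.9 CPM in MC903 resident and 5.78, 1.32, 20.2 and 34.9 CPM in bone marrow libraries. Spread within each group was wide and the groups overlapped. The log2 difference of bone marrow from untreated resident cells was 0.28 ± 0.78 (SE, edgeR adjusted p = 0.896) and turned to -0.50 (adjusted p = 0.729) without library 15. Of the exonic bases of Piezo1, 24.6% overlap Ctu2 on the opposite strand. Reads from those bases cannot be assigned to either gene without strand, and how they were counted is not given in the sources used here.

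Trpv4, Piezo1 and Trpm4 each had their highest level of the 14 libraries in library 15. In that library the macrophage genes C1qa, C1qb, Csf1r, Lyz2 and Adgre1 were at 790, 2260, 1110, 4840 and 342 CPM. C1qa was at 0 in the 5 untreated libraries, and its highest value in libraries 11, 13 and 14 was 3.34 CPM. The part of these markers' cells in the 3 channel genes was not tested. In bone marrow libraries 11, 13 and 14 the 8 markers summed to 172, 80.9 and 338 CPM, mostly Cd68 in libraries 11 and 13 (163 and 74.2 CPM) and Lyz2 in library 14 (257 CPM), with Adgre1 at 0, 0 and 0.513 CPM. In these 3 libraries Trpv4 was at 0.0419 CPM or less, whereas Trpm4 in libraries 11 and 14 and Piezo1 in library 14 were above every resident library.

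**Figure D4:**
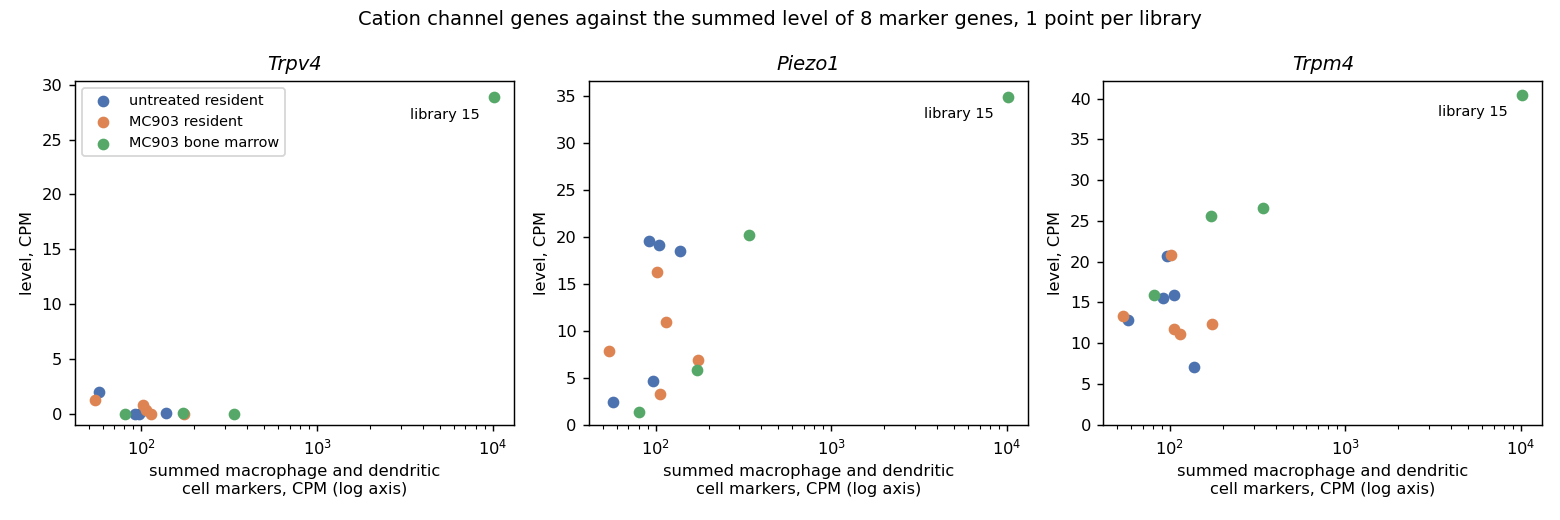
Level of Trpv4, Piezo1 and Trpm4 (vertical axes, CPM) against the summed level of 8 macrophage and dendritic cell markers (horizontal log axis, CPM), 1 point per library, coloured by group. Library 15 lies alone at the right, at 10200 CPM of markers, and has the highest level of all 3 genes (28.9, 34.9 and 40.5 CPM).

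Per kilobase, the order of the 10 members differed between the groups. In untreated resident cells Trpv2 (20.2 CPM per kilobase) and Trpm7 (4.98) came first, followed by Grik2 (1.95), Kcnk6 (1.68), Trpm4 (1.33) and Piezo1 (1.29). The last 4 were Kcna3 (0.735), Trpm2 (0.584), Kcnn4 (0.125) and Trpv4 (0.115), and Kcnn4 was above only 18.1% of the genes tested. In bone marrow cells Kcnn4 was at 41.8 CPM per kilobase, next to Trpv2 at 42.5, and they were above 94.1% and 94.2% of the genes tested; given their spread over libraries, the 2 cannot be ordered. Kcna3 (6.08) came next, and Grik2 was last at 0.00655 CPM per kilobase, above 3.61% of genes. In MC903 resident cells Kcnn4 was at 0.92 and Grik2 at 0.583 CPM per kilobase, between the values of the other groups.

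Grik5, which encodes the kainate receptor subunit GluK5 that assembles with subunits such as GluK2, was the most abundant gene per kilobase of the ionotropic glutamate receptor list in all 14 libraries. It was at 67.8, 84.1, 69.9, 105 and 62.5 CPM in untreated resident, 61.7, 50.7, 62.1, 40.3 and 64.3 CPM in MC903 resident and 53.3, 14.3, 52.1 and 24.7 CPM in bone marrow libraries. Every bone marrow library was below every untreated library, but the spread among bone marrow libraries was wide. The log2 difference was -1.11 ± 0.33 (SE), with edgeR adjusted p = 0.0473. The call was lost on leaving out 1 library in 6 of 9 cases, which were untreated libraries 1, 2, 3 and 4 and bone marrow libraries 13 and 15. In those cases the differences were -1.16 to -0.855 (adjusted p = 0.0605 to 0.128), and the call was kept in the rest. The Grik5 call was also lost in 3 of the 7 other settings: TMM computed on abundant genes (adjusted p = 0.0535), only the groups compared (0.0934) and libraries 7, 8 and 15 left out (0.129). In edgeR Grik5 was the only gene called of 18 tested in a list of 19 glutamate receptor and partner genes other than Grik2, or 5.56% beside 6.87% of all genes. DESeq2 and limma each called 3 of the 18, beside 12.9% and 10.4% of all genes. Grik2 held 10.2% ± 3.31, 3.43% ± 1.25 and 0.0671% ± 0.118 of the list's summed level in the 3 groups, whereas Grik5 held 77% ± 3.49, 62.9% ± 12.3 and 69.7% ± 18.9.

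**Figure D5:**
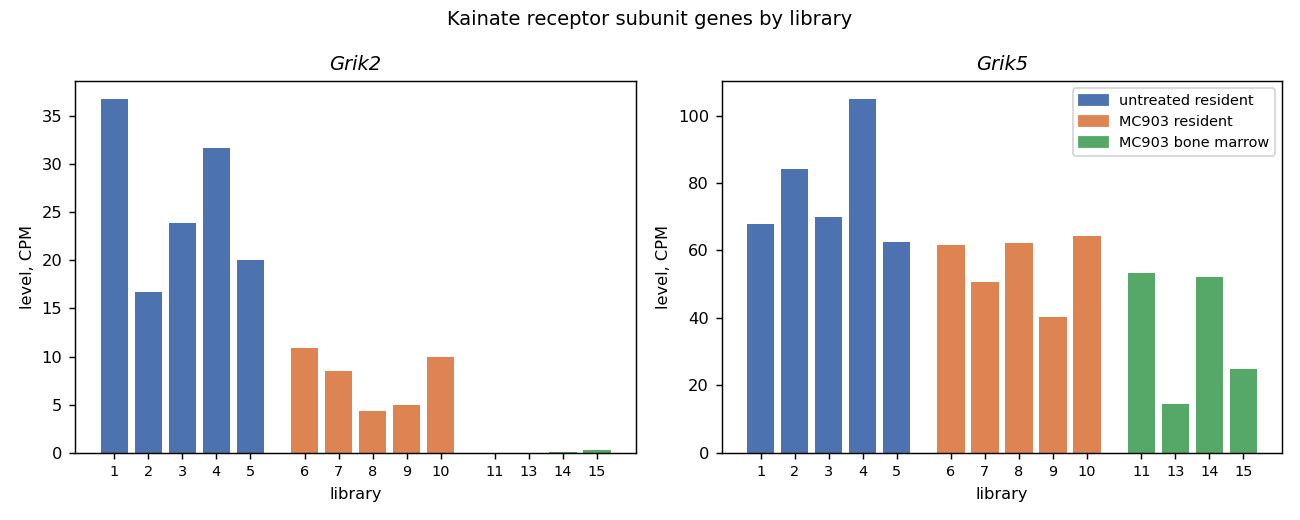
Levels of the kainate receptor subunit genes Grik2 and Grik5 in each library, in CPM (vertical axes from 0), coloured by group. Grik2 is at 0.304 CPM or less in the bone marrow libraries, where Grik5 is at 14.3 to 53.3 CPM.

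Genes of calcium entry, pumps and KCa3.1 regulation were counted from lists of the same pathway. In store-operated calcium entry, 8 of 8 genes were tested and 1 was called between the resident groups, or 12.5% beside 2.25% of all genes. Saraf, which encodes a protein that turns the process off, fell by 0.87 ± 0.19 (SE) on the log2 scale in MC903 resident against untreated resident cells (edgeR adjusted p = 0.011). Its level was 303 ± 74.1 CPM (SD, n = 5) against 552 ± 106 CPM (SD, n = 5), with no overlap. Without libraries 7, 8 and 15, those with the most genes detected, it was -0.63 (adjusted p = 0.0998). Cracr2a, a regulator of Orai and Stim, was lower in bone marrow than in untreated resident cells by the same test (-1.17 ± 0.33, adjusted p = 0.0349), with overlapping libraries. The call was lost in 6 of 9 cases when 1 library was left out and in 4 of the 7 other settings (adjusted p = 0.0525 to 0.0907 in those 4). The Cracr2a differences were -1.20 to -1.01 in those 6 cases and -1.19 to -1.08 in those 4 settings. Orai1 was at 23.5 ± 13.6, 27.4 ± 7.9 and 53.7 ± 32 CPM, and its difference of bone marrow from untreated resident cells, 1.19 ± 0.44, was not past the threshold (adjusted p = 0.118).

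Of 14 genes of sodium, potassium and calcium pumps, 13 were tested, and 2 fell in bone marrow against untreated resident cells in edgeR, where 15.4% of the list stands beside 6.87% of all genes. They were the sodium pump beta subunits Atp1b1 (-1.76 ± 0.49, adjusted p = 0.0319) and Atp1b3 (-0.84 ± 0.23, adjusted p = 0.0291). Leaving out 1 library lost the first call in 4 of 9 cases and the second in 3 of 9. The differences in those cases were -1.76 to -1.67 for Atp1b1 and -0.842 to -0.611 for Atp1b3. The Atp1b1 call was also lost with only the groups compared (adjusted p = 0.0581), and 18.7% of the exonic bases of Atp1b1 overlap another gene. In the main edgeR fit none of 9 KCa3.1 regulators was called in the 3 comparisons. At an unadjusted p under 0.05 in edgeR there were 3, 1 and 2 of them in the order used above, beside 12.6%, 17.7% and 21.3% of all genes. Over the alternatives run, DESeq2 and limma included, the number called was above 0 in 5, 2 and 4 fits. DESeq2 called 2, 0 and 0 of the 9, and limma 0, 1 and 1. None of 6 tested mechanically gated channels and partners was called in the main edgeR fit, with 0, 1 and 1 at an unadjusted p under 0.05. Over the same alternatives the number called was above 0 in 4 fits of bone marrow against MC903 resident and 7 against untreated resident cells. DESeq2 called 0, 0 and 1 of these 6, and limma 0, 2 and 1. Over all 8 lists without Kcnn4 and Grik2, 142 of 178 genes were tested, and edgeR called 1, 1 and 8 of them in the order of comparisons above, of which 2 were higher and 8 lower. These are 0.704%, 0.704% and 5.63% of the genes tested, beside 2.25%, 2.27% and 6.87% of all genes. DESeq2 called 4.93%, 8.45% and 12.7% of the 142 (7, 12 and 18 genes), beside 5.06%, 8.14% and 12.9% of all genes. By limma these were 5.63%, 11.3% and 9.86% (8, 16 and 14 genes), beside 6.46%, 9.6% and 10.4%.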

How the data were processed

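The series' count table held read counts per gene for 14 libraries, as deposited by the authors. Reads were aligned with STAR and counted with featureCounts on mm10, per the submitters' processing notes. Versions, trimming and the strand setting are not given in the sources used here. Libraries were made with SMART-Seq HT and Nextera XT, per the labels' protocols. The deposited exonic length served for CPM per kilobase. Deposited coordinates of all 10 members were those of GENCODE M21 on GRCm38, and 55394 gene identifiers were matched to symbols.

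Genes were filtered with filterByExpr (minimum count 10, minimum total 15), which left 21014. One edgeR 4.0.16 quasi-likelihood model (R 4.3.3) with 3 groups, no covariates and TMM scaling was fitted to all 14 libraries, and p-values were adjusted by Benjamini-Hochberg over all genes tested. Adjusted p under 0.05 was a call. A gene at 3 counts or fewer in a library was at the floor there. The code of the fit was run on simulated counts with less spread between libraries than these data. The common dispersion of these data, edgeR's measure of that spread, was 1.33. The simulated run therefore does not measure power or error rate here.

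The members and lists were chosen with earlier results of these data known. The genes named from the lists were, for each comparison, up to 8 called genes with the largest log2 fold change that averaged 5 CPM or more in the higher group. Orai1, Kcnk5 and Kcnj5 fell outside that rule and were chosen after their values were seen. Alternatives were DESeq2 1.42.0 size factors and its Wald test, TMM factors computed on genes averaging 10 CPM or more, no filter, limma 3.58.1 with voomWithQualityWeights, only the groups compared, each library left out, and libraries 7, 8 and 15 left out together.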

Additional observations from a re-analysis of the deposited data

Results flagged for a closer look

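Over the 10 genes and 3 groups, 30 sets of libraries were examined for a library far from the rest of its group, measured by its gap to the nearest library over the range of the group. In 9 of them 1 library stood out. Chance marks about 1 in 20 such sets where values are normally distributed. CPM near 0 are skewed, so that rate does not hold for them and the flags are a description. Untreated resident library 5 stood out for Kcnn4, at 2.95 CPM with the next library at 0.19, and for Trpv2, at 58.8 CPM with the next at 94.1. Bone marrow library 15 stood out for Trpv4, at 28.9 CPM with the next at 0.0419, and for Grik2, at 0.304 CPM with the next at 0.0427. Kcna3 had 1 high library in each MC903 group: library 9 among resident cells, at 8.81 CPM with the next at 2.55, and library 14 among bone marrow cells, at 22.9 CPM with the next at 9.09. Trpv4 was at 1.97 CPM in untreated library 2, with the next at 0.34. Among MC903 resident cells Trpm4 was at 20.8 CPM in library 7, with the next at 13.3, and Trpm7 at 76.7 CPM in library 6, with the next at 45.6.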

How the results depend on the processing

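No paired analysis was possible because the libraries carry 1 running series of numbers and the groups share none. Over the alternatives run, the fitted differences of Kcnn4 and Grik2 kept their signs, which is a description because their patterns chose them. On leaving out 1 library, Kcnn4 ranged over 2.16 to 6.24 (MC903 resident over untreated), 5.09 to 6.21 (bone marrow over MC903 resident) and 8.05 to 11.7 (bone marrow over untreated), and Grik2 over -1.85 to -1.48, -8.66 to -6.06 and -10.4 to -7.78. The Trpv2 call was kept under all 7 other settings (1.01 to 1.20, adjusted p = 0.00162 to 0.0358) and ranged over 0.78 to 1.23 on leaving out 1 library. The count of called members in bone marrow over untreated cells was 2 by limma and 0 to 1 on leaving out 1 library. Over all genes tested, the number called for MC903 resident over untreated was 473, against 1063 by DESeq2, 1358 by limma, 253 without libraries 7, 8 and 15 and 312 to 516 without 1 library. For bone marrow over MC903 resident it was 477, against 748 with no filter, 1711 by DESeq2, 2017 by limma, 315 with only the groups compared and 302 to 704 without 1 library. For bone marrow over untreated it was 1443, against 2707 by DESeq2, 2194 by limma and 1140 to 1549 without 1 library. Between resident groups 596 of the DESeq2 calls were higher and 467 lower.

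Some differences that passed no threshold changed sign, and the cause was not tested. Trpv4 had no test in some alternatives, so the Trpv4 ranges below cover only the fits in which it had one. Between resident groups Trpv4 was 0.18 with DESeq2 size factors, 0.25 with TMM from genes of at least 10 CPM, 1.30 by limma and 0.21, 0.42 and 0.28 without libraries 6, 9 and 10 (range without 1 library -0.34 to 0.42). Trpm4 was 0.10 with DESeq2 size factors and by its Wald test, 0.16 with that TMM, and 0.09, 0.21, 0.10, 0.10 and 0.02 without libraries 1, 4, 6, 9 and 10 (range -0.22 to 0.21). For bone marrow over MC903 resident, Trpv4 was -1.96 by limma and -4.56 without library 15 (range -4.56 to 4.37), Piezo1 was -0.20 by limma, Trpm7 was 0.13 without library 11 (range -0.61 to 0.13) and Kcnk6 was 0.51 without libraries 7, 8 and 15. For bone marrow over untreated, Trpv4 was -0.66 by limma and -4.62 without library 15 (range -4.62 to 4.36), and Piezo1 was -0.42 by limma, -0.50 without library 15 (range -0.50 to 0.66) and -0.52 without libraries 7, 8 and 15. Other scalings moved the median of all genes between resident groups from 0.24 to 0.40 and 0.45, and that of bone marrow over MC903 resident from -0.28 to -0.43 under both.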

Other observations

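The remaining 73 potassium channel pore genes, those other than Kcnq1, Kcnn4, Kcna3 and Kcnk6, were unevenly spread over the libraries. They made up 13.5% to 24.9% of the summed pore level per kilobase in untreated resident, 21.1% to 50.1% in MC903 resident and 4.91% to 28% in bone marrow libraries. The highest values were in libraries 8 and 7 (50.1% and 46.6%), and library 15 was the highest of its group. In libraries 8, 7 and 15, 64, 52 and 55 of the 73 genes had more than 3 counts, against 8 in library 13 and 9 in library 11. MC903 resident library 6 had 53 such genes with a share of 29.9%, and library 9 had 36 with a share of 33.2%. The genes with at least 1 count over the whole table were also most numerous in libraries 8, 7 and 15, and the part of that in the shares was not tested.

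Some single pore genes were high in 1 or a few pools and near 0 in many others. The genes given here were chosen after their values were seen. Kcnj5, which encodes an inwardly rectifying channel, was at 28 CPM in MC903 resident library 9 and at 0 CPM in libraries 6 and 10 of the same group. Kcnk5, a leak channel gene, was at 2.6, 0, 23.6 and 9.94 CPM in bone marrow libraries 11, 13, 14 and 15. It was at most 1.69 CPM in the resident libraries.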
